A study of Mus musculus with 24 samples.

Results

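Bone marrow-derived macrophages that had received no stimulus were described from 6 RNA-seq libraries, the unstimulated wild-type group (M0) of a series of 24 libraries in 4 groups of 6. The members were chosen by their sample titles alone, and no measured value entered the choice. The cells came from marrow of the femurs and tibias of MK2 wild-type C57BL/6N mice, where MK2 is the kinase encoded by Mapkapk2. They were grown in medium with 10 ng/ml murine M-CSF, detached and replated on day 7 in medium with 10% serum, left without a further agent, and harvested 24 h later. The other wild-type group (M2) was prepared in the same way but received 10 ng/ml murine IL-4 for the 24 h, and the remaining groups carried the MK2 knockout. Ages, sexes and numbers of mice are not given in the labels. The labels do not say whether the 6 libraries came from separate animals, so the SD quoted here measures the spread between libraries, which may in part be technical. A macrophage made in culture from marrow is a model of a resting macrophage that has seen no tissue, and the M-CSF that makes it is itself a signal.

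Macrophages are phagocytes that engulf microbes, dying cells and debris and break them down in lysosomes. M-CSF, through its receptor Csf1r, drives marrow progenitors to become macrophages and keeps them alive, and the transcription factor PU.1 (Spi1) sets their identity. At rest they carry many surface receptors for sensing and uptake, while most inflammatory cytokines are transcribed only after a stimulus has been sensed.

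Levels are given as the deposited GETMM values, which scale read counts for gene length as well as library size, so that levels may be compared between genes. Each is the mean ± SD over the 6 libraries unless stated. The libraries held between 8232252 and 12121678 expected counts. A gene was called measured at a mean of at least 1 CPM (counts relative to the library total), rare below that, and at the floor with 3 or fewer counts over all 6 libraries, a limit of 0.0525 CPM in the pooled 57178337 counts. Of 54429 gene symbols, 12468 were measured, 7811 were rare, 6659 were at the floor with at least 1 count, and 27491 had none. Among protein-coding symbols 51% (11180 of 21925) were measured, and 12% of those stood at a mean GETMM of 100 or more. These shares are the background for all counts of list members given below as measured or at 100 or more. The median measured gene stood at 16.4, and 96 genes reached 1000. The 10 most counted genes of a library took 15.1% ± 1.14 of its counts, the top 100 took 34.0% ± 0.998 and the top 1000 took 63.1% ± 0.629 (n = 6).

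Replicates 1, 3 and 4 stood apart from the other libraries on the leading axis of variation. Replicates 1 and 4 lay to one side and replicate 3 to the other. On the first principal component of log2(GETMM + 1), which held 60.7% of the variance, replicates 1 and 4 scored 33.3 and 17.8, against -10.04, -21.3, -10.06 and -9.79 for replicates 2, 3, 5 and 6. Replicate 3 also had the highest score on the second component, 19.1 against -9.58 to 5.12. Replicate 2 had the highest score on component 3, which held 12.8% of the variance, at 15.8 against -9.75 to 5.92. Mitochondrial genes took 7.52% and 5.08% of the counts in replicates 1 and 4 and 2.48% to 3.17% in the rest. In the fifth of coding genes with the highest GC content, the median level lay 0.135 and 0.0795 below the gene's own mean (log2) in replicates 1 and 4, and 0.215 above it in replicate 3. The part of these features in the results was not tested. Leaving out replicates 1 and 4 moved the mean of 1 of 633 measured genes on the lists described here by more than 1.5 times, that of the immunoglobulin chain Igkc, from 11.4 to 7.03, and leaving out replicate 3 as well moved the same gene only, to 5.76. No library repeated another, since even the most similar pair gave a chi-square of 4.803 per degree of freedom, where repeats would give about 1.

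The cells carried the macrophage markers in every library. Lyz2, the lysozyme of myeloid cells, stood at 16999.9, 18528, 14253, 12887, 13589 and 14376 GETMM in replicates 1 to 6. Cd68, a heavily glycosylated protein of the endosome and lysosome, gave 3506, 2399.5, 2725, 2945, 2236 and 2365. Adgre1, which encodes the F4/80 antigen, gave 509.7, 783, 776, 534, 681 and 679. Csf1r, the receptor for M-CSF, gave 444, 565, 491, 375, 379.8 and 415. Mrc1, the mannose receptor, gave 312, 269, 281, 332, 285 and 325. All 5 were above the median measured gene in every library. Among the other genes of macrophage identity, Mpeg1, which encodes the pore-forming protein perforin-2, was at 2075 ± 102, Lgals3 (galectin-3) at 6297 ± 866 and Itgam (CD11b) at 165 ± 14.02. Of 16 identity genes 15 were measured, and the low end held the monocyte genes: Ly6c2 at 3.77 ± 1.19, Ly6c1 at 1.03 ± 0.68 and rare, and Cx3cr1, the fractalkine receptor, at 0.52 ± 0.199.

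**Figure D1:**
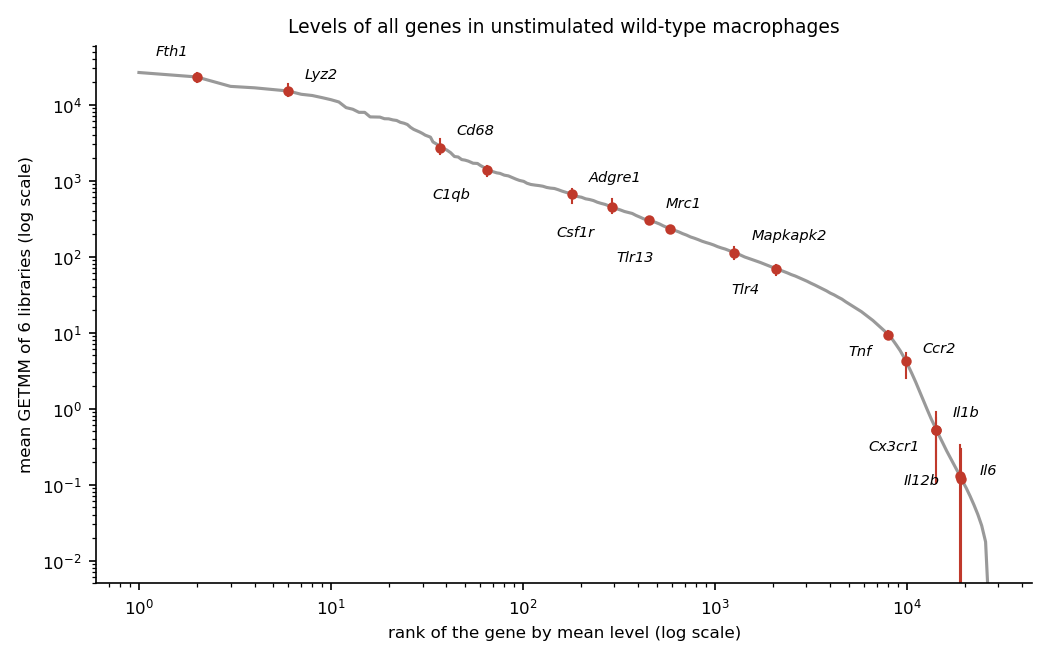
Mean GETMM of every gene with a count against its rank (both axes logarithmic, grey line), with named genes in red and a vertical bar from the lowest to the highest of the 6 libraries. Fth1 and Lyz2 lie at the top left, the macrophage and Toll-like receptors between rank 180 (Adgre1) and rank 2088 (Tlr4), and Il1b, Il6 and Il12b at the lower right, where the bars reach down to libraries with no count.

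The 250 bases before the RefSeq start sites of Cd68 and Itgam (GRCm38.p6, the assembly of mm10) are shown because these identity genes hold GAGGAA, a short sequence found in binding sites of PU.1. The window is chr11:69666171-69666420 on the minus strand for Cd68 and chr7:128062390-128062639 on the plus strand for Itgam, and neither overlaps its GENCODE gene. Capitals mark GAGGAA or its reverse complement TTCCTC.
Cd68: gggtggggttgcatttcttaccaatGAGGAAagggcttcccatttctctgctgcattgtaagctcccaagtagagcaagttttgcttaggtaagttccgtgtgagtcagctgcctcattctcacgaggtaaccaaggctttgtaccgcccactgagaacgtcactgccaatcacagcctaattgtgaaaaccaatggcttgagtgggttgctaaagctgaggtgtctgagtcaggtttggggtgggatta
Itgam: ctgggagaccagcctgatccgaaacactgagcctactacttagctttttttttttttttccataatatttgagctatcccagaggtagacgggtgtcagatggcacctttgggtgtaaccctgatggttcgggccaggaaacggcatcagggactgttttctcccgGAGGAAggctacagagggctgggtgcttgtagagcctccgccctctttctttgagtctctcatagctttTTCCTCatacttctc
Searched on both strands, the 6 letters were present in 8 of the 13 identity genes with a RefSeq window (61.5%) and in 23.1% of 27025 windows of the same length. The GENCODE gene begins further upstream in some of them, and 6 of the 13 windows lay at least partly inside it. A match of this kind describes letters only and does not show binding.

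Each list of markers of other cell types summed to less than the 5 macrophage markers did. Those summed to 17073 to 22544 over the libraries, and to 3582 to 4771 without Lyz2. A few genes made up much of the higher sums of the other lists. The 10 osteoclast markers summed to 953 to 1501 GETMM over the libraries, but Atp6v0d2, a proton pump subunit, made up 1029 of the mean, the rest together stayed between 120.0 and 130.4, and Calcr, the calcitonin receptor, had no count. The erythroid and platelet list summed to 355 to 660.0, nearly all of it Pf4 (platelet factor 4) at 498 ± 116, and without Pf4 to 16.5 to 37.2. Neutrophil markers summed to 431 to 623, led by S100a9 at 215 ± 22.4, S100a8 at 173 ± 41.4 and the granule gene Ngp at 70.99 ± 16.01, while Ly6g had 5 counts in all. The 4 of 12 neutrophil genes below 1 CPM were Retnlg, Prtn3, Elane and Ly6g. In bulk RNA a few cells with much of a transcript and many cells with little of it cannot be told apart. Of 15 stromal markers 14 were measured, against 51% of all protein-coding symbols. The list was led by Bgn (23.05) and Sparc (19.00), with a sum of 69.4 to 106. Endothelial markers summed to 25.7 to 33.4, mostly Vwf, and basophil, mast cell and eosinophil markers to 36.7 to 49.0, mostly Ccr3. T and NK cell markers summed to 10.6 to 25.9, of which Cd4 held 17.6, and Cd3e and Cd3g had 2 and 3 counts. B cell markers summed to 83.9 and 63.4 in replicates 1 and 2 and to 18.6 to 33.3 in the other libraries. Ighm, the heavy chain of IgM, held 27.5 of the mean of 41.8, and without it the sums ran from 6.62 to 32.3. Dendritic cell markers were the lowest, at 4.34 to 8.37. The part of these cells in the results below was not tested.

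**Figure D2:**
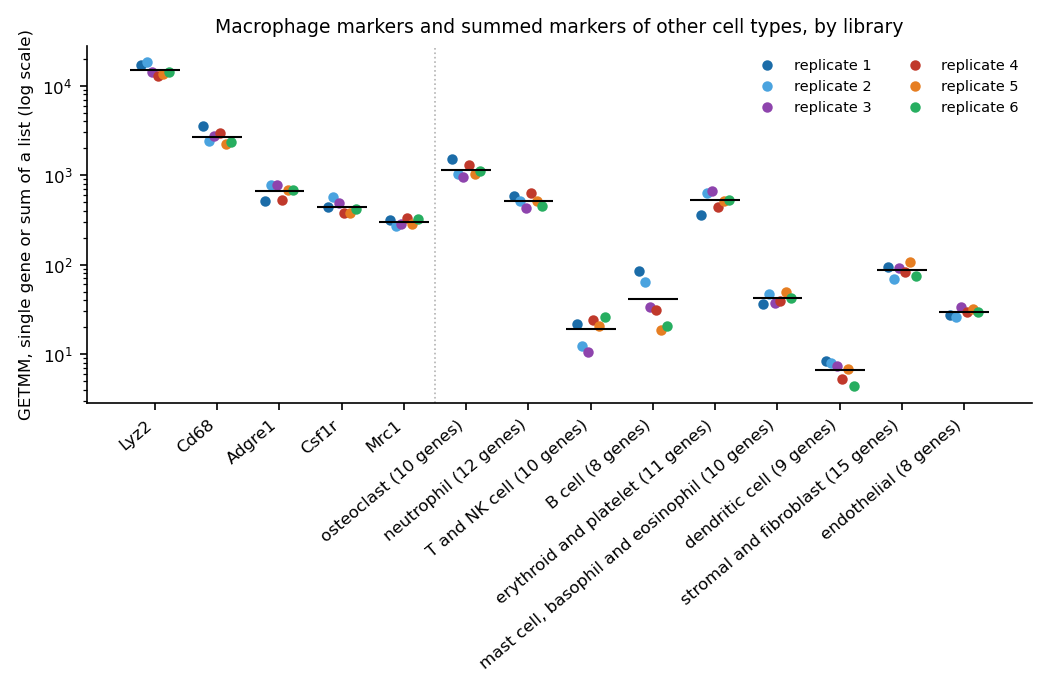
GETMM of 5 macrophage markers (left of the dotted line) and the summed GETMM of 9 marker lists for other cell types (right), by library on a logarithmic axis; bars show means of 6 libraries. Lyz2 alone lies above every summed list, and the B cell sum separates replicates 1 and 2 from the others.

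Iron storage, lysosomal digestion and lipid handling filled the top of the ranking. The 20 most abundant genes outside the mitochondrial, ribosomal protein and predicted genes began with Fth1, the heavy chain of ferritin (lowest 19817, median 23847, highest 25753), and Gpnmb, a transmembrane glycoprotein of late endosomes and lysosomes (lowest 15757, median 16745, highest 21317). Ftl1, the ferritin light chain, followed at lowest 8138, median 17132, highest 22415, lowest in replicate 1 and next lowest in replicate 4. Its mean was 18949 without those libraries and 15806 with them. Lyz2 stood at 15106 ± 2181. Next came the aspartic protease Ctsd at 13178 ± 2050.2, the saposin precursor Psap at 11616 ± 1754, the lipoprotein Apoe at 10840.1 ± 1619 and the cysteine protease Ctsb at 9132 ± 1180.1. The cytoskeletal and growth genes Actb, Tmsb4x and Eef1a1 stood at 8695, 5479.6 and 6499. The remaining places went to the proteases Ctsl and Ctss, the lectin Lgals3, the fatty acid and dead-cell receptor Cd36, the selenium carrier Selenop, the membrane protein Itm2b, the secreted phosphoprotein Spp1 (osteopontin), the lipoprotein lipase Lpl and the peroxidase Prdx1, from 6849 down to 3747. Spp1 ranged from 2771 in replicate 2 to 5963 in replicate 5, whereas Actb varied only from 7703 to 9305. Mitochondrial genes held 11 of the 60 highest places. The highest of all 54429 symbols was an rRNA gene model, CT010467.1, which ranged from 7241 to 44316, and 3 mitochondrial-like pseudogenes were also in the 60. These are named only as sinks of reads, since 40-base reads from near-identical copies could be divided between them.

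Lysosomal genes formed one of the most abundant lists, with a median below that of the cytoskeletal genes (878) only among lists of more than 2 genes: 49 of 51 were measured, 38 stood at 100 or more, 17 at 1000 or more, and the list median was 561. After Ctsd, Ctsb, Ctsl and Ctss, the protease Lgmn (legumain) stood at 1764 ± 132, Ctsz at 1090.0 ± 54.9 and Ctsa, which protects other hydrolases, at 1039 ± 69.6. Cst3, the secreted cathepsin inhibitor cystatin C, was at 979.8 ± 174. Ctsk, the collagen-degrading cathepsin of osteoclasts, was lower at 29.1 ± 2.03, and Ctse and the neutrophil gene Ctsg were rare with 35 and 21 counts. All 18 hydrolases and their partners were measured, from Psap and the acid lipase Lipa (1720.5 ± 47.7) down to the sphingomyelinase Smpd1 (20.6 ± 3.23) and the tartrate-resistant phosphatase Acp5 (16.8 ± 2.12). Lipa spanned only 1668 to 1805 over the 6 libraries. Among membrane proteins, Lamp1, the main lysosomal coat protein, stood at 1694 ± 118, the tetraspanin Cd63 at 1658 ± 106, Laptm5 at 1339.6 ± 56.6 and the calcium channel Mcoln1 at 42.6 ± 3.42. All 9 genes of the proton pump that acidifies the organelle lay between 188 (Atp6v1h) and 1319 (Atp6v0c). The factors known to drive lysosomal genes were moderate, with Tfe3 at 70.4 ± 3.60, Mitf at 57.9 ± 5.77, Tfeb at 48.2 ± 8.25 and Tfec at 27.8 ± 3.59.

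The 250 bases before the RefSeq start sites of Lamp1 and of Atp6v0b, a proton pump subunit at 385 ± 69.8, are shown because they hold CACGTG, the palindrome at the centre of the element that TFEB-family factors bind. The windows are chr8:13158911-13159160 on the plus strand and chr4:117887330-117887579 on the minus strand (GRCm38.p6), and capitals mark the palindrome. The first lies outside its GENCODE gene and the last 4 bases of the other lie inside.
Lamp1: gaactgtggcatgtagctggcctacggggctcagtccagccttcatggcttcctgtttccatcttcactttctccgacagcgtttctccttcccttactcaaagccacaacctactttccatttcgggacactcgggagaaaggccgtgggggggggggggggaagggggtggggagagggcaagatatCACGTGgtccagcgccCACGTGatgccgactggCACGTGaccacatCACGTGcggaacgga
Atp6v0b: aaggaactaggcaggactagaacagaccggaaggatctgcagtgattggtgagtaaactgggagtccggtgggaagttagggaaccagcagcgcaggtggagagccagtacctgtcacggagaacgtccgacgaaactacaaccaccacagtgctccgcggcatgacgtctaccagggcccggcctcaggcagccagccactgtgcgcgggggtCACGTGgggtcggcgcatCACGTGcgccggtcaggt
The Lamp1 window held 4 matches and the Atp6v0b window 2. Of 39 lysosomal genes with a RefSeq window, 11 held CACGTG (28.2%), against 6.05% of all 27025 windows. Of the 11 windows 10, all but that of Lamp1, lay at least partly inside the GENCODE gene, as did 20 of the 39. The palindrome reads the same on both strands and does not overlap GAGGAA, and the match says nothing of binding in these cells.

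**Figure D3:**
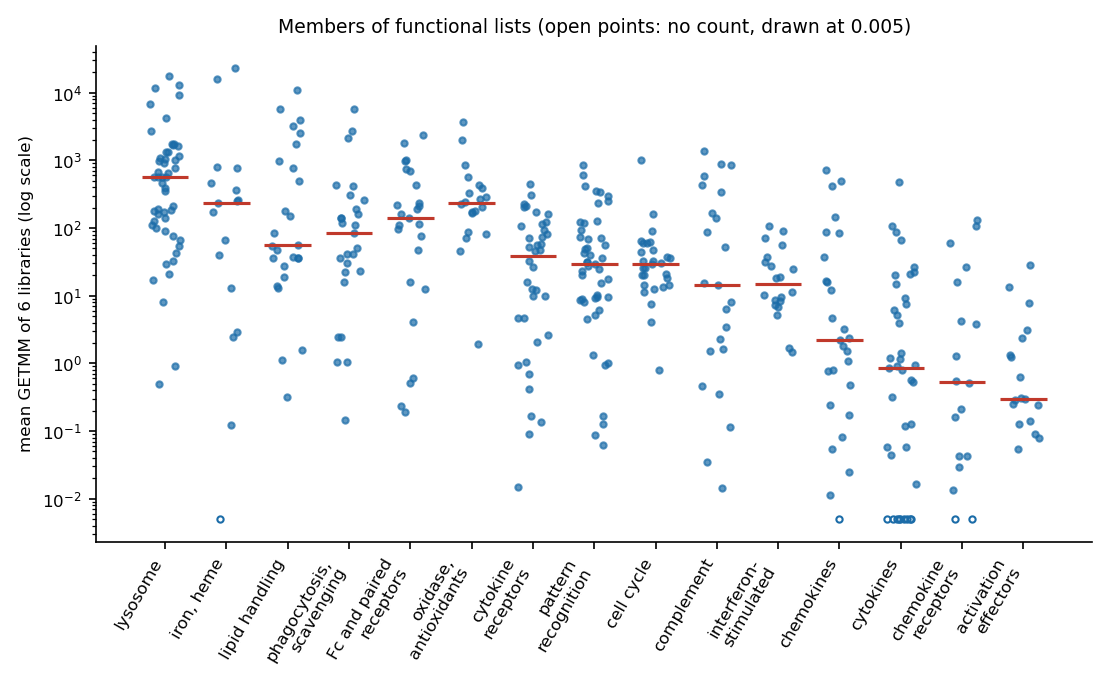
Mean GETMM of each member of 15 functional lists on a logarithmic axis, with the list median as a red bar and genes without a count as open points. Medians fall from 561 for lysosomal genes to 0.301 for activation effectors, and the cytokine list has the most members without a count, 9.

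Genes that take up, store and export iron were well represented. Besides both ferritins, the heme-degrading enzyme Hmox1 stood at 800.1 ± 48.1, the transferrin receptor Tfrc at 781 ± 104, Ncoa4, the cargo receptor for ferritin turnover, at 467 ± 33.9, and the exporter Slc40a1 (ferroportin) at 362 ± 73.4. Slc11a1, the metal transporter of phagosomes, was at 258 ± 34.2 and the heme transporter Slc48a1 at 232 ± 17.7. Spic, the factor of heme-recycling splenic macrophages, was much lower at 12.8 ± 4.34. Of 17 genes 15 were measured and 10 stood at 100 or more. Hamp, which encodes the iron hormone hepcidin, had no count, and Hpx had 6. Fth1 exceeded Ftl1 in all 6 libraries, by 1.08 to 3.16 times. The library with the widest ratio was replicate 1.

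Lipid genes of uptake, storage and efflux stood higher, at a median of 625, than those of synthesis, at a median of 35.8. Of 16 genes of uptake, storage and efflux, 11 stood at 100 or more. They included Apoe, Cd36, Lpl, the fatty acid carrier Fabp5 (3230.4 ± 145), the lipid droplet coat Plin2 (2554 ± 405), the cholesterol esterifying enzyme Soat1 (762 ± 28.6) and the cholesterol exporters Abca1 (177 ± 15.9) and Abcg1 (149.6 ± 13.8). Cd36 varied little, from 5251 to 6129, as did Fabp5, from 3058 to 3447. All 11 synthesis genes were measured, and their median lay above that of all measured protein-coding genes (18.7). None of them reached 100, the highest being the sterol enzyme Hmgcs1 at 85.9 ± 13.7 and the lowest the desaturase Scd1 at 1.11 ± 0.187. The sterol regulators Srebf2 and Srebf1 stood at 54.4 ± 7.70 and 27.9 ± 7.52, and the fatty acid synthase Fasn at 18.8 ± 3.31.

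Receptors for dying cells, modified lipoproteins and antibody were abundant. Among 12 receptors for apoptotic cells, Cd36 led, followed by Lrp1 at 414 ± 47.2, Itgb5 at 192 ± 24.2, Stab1 at 159 ± 28.7 and the kinase Mertk at 119 ± 17.3. Of the related TAM kinases, Mertk exceeded Axl by 2.44 to 8.35 times in the 6 libraries, and Tyro3 was rare at 1.06 ± 0.507. Their bridging ligand Gas6 was at 311 ± 33.3 and Pros1 at 36.1 ± 1.44, so ligand and receptor RNA were both present. Timd4, a phosphatidylserine receptor of tissue-resident macrophages, was at 1.07 ± 1.17. Of 10 scavenger receptors, Cd68 and Cd5l (a secreted member, 2134 ± 404) passed 1000, the class A receptor Msr1 stood at 428 ± 45.6, and Marco, Cd163 and Olr1 were low at 2.45, 2.46 and 0.143.

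Fc receptor genes were led by the signalling chain Fcer1g at 1005 ± 119 and Fcgr3 at 745 ± 103. The inhibitory Fcgr2b gave 328, 210.4, 138, 185, 141 and 150.5 in replicates 1 to 6, highest in replicate 1, and the high-affinity Fcgr1 stood at 75.8 ± 11.6. The IgE receptor Fcer2a was rare, with 9 counts. The adaptor Tyrobp (DAP12) stood at 1804 ± 206 and its lipid-sensing partner Trem2 at 977 ± 107, whereas Trem1 and Trem3, the inflammatory members, had 18 and 20 counts. Of the inhibitory genes 8 of 9 were measured: Sirpa, which reads the CD47 signal on other cells, was at 2335 ± 129.5, Lilrb4a at 693 ± 214, Pirb at 434 ± 93.7 and Cd200r1 at 162 ± 21.6. Siglece was rare at 0.514 ± 0.199. In all, 21 of 25 Fc and paired receptor genes were measured and 15 stood at 100 or more. Of all protein-coding symbols 51% were measured, and 12% of those stood at 100 or more.

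Among Toll-like receptors, 3 that read RNA in the endosome, Tlr8, Tlr13 and Tlr7, stood highest, and the other endosomal receptors Tlr3 and Tlr9 were the lowest of those measured. Tlr8 was at 255 ± 37.7 and Tlr13, the receptor for bacterial ribosomal RNA in the mouse, at 232 ± 13.2, with ranges of 219.5 to 319 and 210.2 to 250.1 that overlapped. Tlr7, which reads single-stranded RNA, followed at 92.5 ± 13.4 and the lipopolysaccharide receptor Tlr4 at 69.6 ± 6.78. The range of Tlr7 (73.5 to 114) lay below that of Tlr13 and met that of Tlr4 (57.2 to 77.7). Tlr1 and Tlr6, the partners of Tlr2, stood at 56.9 ± 6.03 and 31.4 ± 2.79, and Tlr2 itself at 15.3 ± 4.84. Tlr3 was at 10.4 ± 1.12 and Tlr9, the receptor for CpG DNA, at 5.24 ± 1.11, 32.1 to 54.5 times below Tlr13. The remaining receptors, Tlr5 for flagellin and Tlr11 and Tlr12 for a protozoan profilin, were rare, with 12, 6 and 5 counts in all. Unc93b1, which carries nucleic acid receptors to the endosome, stood at 356 ± 46.04, Cd180 at 337 ± 46.1 and the Tlr4 co-receptors Cd14 and Ly96 at 74.5 ± 21.2 and 49.2 ± 7.30.

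The C-type lectins were led by Clec4d at 843 ± 105, the beta-glucan receptor Clec7a (dectin-1) at 608 ± 156 and Clec12a at 424 ± 28.5. Clec4e (Mincle), which senses mycobacterial glycolipid, was at 4.51 ± 1.36 and Cd209a was rare. All 15 cytosolic sensors and their effectors were measured. Casp1, the inflammasome protease, was highest at 129 ± 4.71, its substrate Gsdmd stood at 50.6 ± 6.60, the DNA sensor Aim2 at 40.6 ± 12.2, Nlrp3 at 9.60 ± 1.42 and Nod2 lowest at 0.96 ± 0.189. The DNA sensor gene Mb21d1 (cGAS) stood at 6.14 ± 1.305 and its adaptor Tmem173 (STING) at 9.58 ± 1.17.

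**Figure D4:**
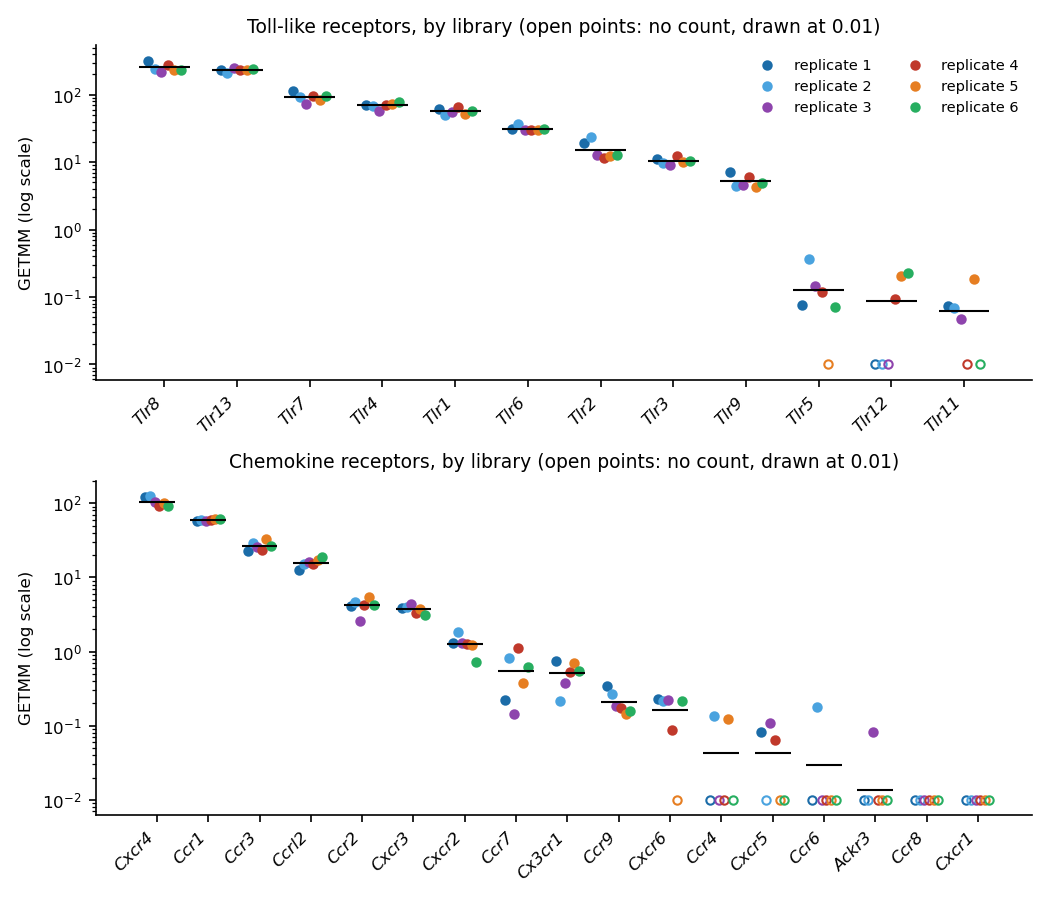
GETMM of 12 Toll-like receptors (top) and 17 chemokine receptors (bottom) by library on logarithmic axes, ordered by mean, with bars at the mean of 6 libraries and open points for libraries without a count. Levels fall steadily from Tlr8 to Tlr9 and then drop to Tlr5, Tlr12 and Tlr11, while among the chemokine receptors drawn only Cxcr4 has a mean over 100.

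Complement genes were divided between an abundant C1q and scarce later components. C1qb and C1qc stood at 1376 ± 170.2 and 887 ± 108, and C1qa, the third chain of the same protein, at 140.1 ± 12.7, 8.49 to 13.1 times below C1qb. Properdin (Cfp), which stabilises the alternative pathway convertase, was at 438 ± 60.4. C3 stood at 6.28 ± 1.70 and Cfb at 1.62 ± 0.374. C4b was rare with 9 counts, and Cfd and Hc, which encodes C5, were at the floor with 1 count each. The receptors were high: C3ar1 at 846 ± 76.7, Itgb2, the shared chain of the complement receptor integrins, at 583 ± 34.3 and C5ar1 at 336 ± 23.5.

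Chemokine genes held a few abundant ligands. Ccl6 stood at 711 ± 53.4, Pf4 at 498 ± 116, Ccl9 at 419.6 ± 56.1 and Ccl3 at 144 ± 27.2. Ccl2, the main monocyte attractant, gave 19.8, 19.9, 42.8, 40.7, 57.03 and 41.8 in replicates 1 to 6, lowest in replicates 1 and 2. Of 27 ligands 15 were measured, a share near that of all protein-coding symbols (51%), 7 were rare and 5 were at the floor. The T cell attractants Cxcl9 and Cxcl11 had 22 and 1 counts, the eosinophil attractants Ccl11 and Ccl24 had 3 and 1, and Cxcl13 had none. Cxcl10 was low at 1.83 ± 0.681.

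Of 18 chemokine receptors 9 were measured, again near the 51% of all protein-coding symbols. Cxcr4, the receptor that holds cells in the marrow, stood at 106 ± 14.7, Ccr1 at 59.7 ± 1.82 and Ccr3, best known from eosinophils, at 26.9 ± 4.00. Ccr2, the receptor of inflammatory monocytes, was at 4.21 ± 0.932, Ccr7 at 0.548 ± 0.374 and rare, and Ccr8 and Cxcr1 had no count. Among 27 receptors for chemoattractants, nucleotides, lipids and metabolites, the ATP-gated channel P2rx4 stood at 381 ± 44.9, the receptor for platelet-activating factor Ptafr at 222 ± 12.8 and the UDP receptor P2ry6 at 83.8 ± 10.8. The formyl peptide receptors Fpr1 and Fpr2 were rare at 0.661 ± 0.174 and 1.31 ± 0.825, Gpr84 at 0.447 ± 0.494, and the succinate receptor Sucnr1 was at the floor with 1 count.

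Of 39 cytokine genes, 19 were measured, a share near that of all protein-coding symbols (51%), 8 were rare and 12 were at the floor, 9 of these with no count in any library. Those without a count were Ifnb1, Ifng, Il23a, Il11, Il1f6, Csf2, Il3, Il5 and Il13, which leaves room for up to 0.0525 CPM. Il1b had 22 counts over the 6 libraries, Il6 5, Il12b 7 and Il12a 2. Tnf was measured in each library, at lowest 8.16, median 9.15, highest 10.5. The abundant members were Tgfb1 at 472 ± 55.2, Tnfsf12 (TWEAK) at 107 ± 15.2, Mif at 87.3 ± 23.3 and the interleukin 1 receptor antagonist Il1rn at 65.6 ± 10.3. Il1rn exceeded Il1b by 55.9 to 523 times. Csf1 itself, Il15 and Ebi3 stood at 26.5, 22.7 and 21.2 with Il18 just below them, and Il10 at 1.40 ± 0.704. Il4, a product of basophils and T cells, was present at 5.11 ± 1.70 with 91 counts in cultures that received none. The basophil and mast cell proteases Prss34, Mcpt8 and Cpa3 had 137, 45 and 92 counts. Of 10 mast cell, basophil and eosinophil markers, 6 were measured (51% of all protein-coding symbols), 3 were rare and 1 had no count. The source of the Il4 counts was not tested.

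Of the receptors for cytokines, 34 of 38 were measured, against 51% of all protein-coding symbols. Csf1r stood at 445 ± 72.9, and the chains of the GM-CSF receptor Csf2rb and Csf2ra at 228 ± 21.4 and 125 ± 35.7. Csf2rb2, a near-copy of Csf2rb, was at 159 ± 9.14, and 40-base reads may be divided between the pair. Csf3r, the G-CSF receptor, was 6.13 to 9.45 times below Csf1r. Il10rb stood at 311 ± 15.4 and Il10ra at 46.7 ± 6.66, the interferon receptor chains Ifnar2, Ifngr1, Ifnar1 and Ifngr2 at 175, 114, 93.3 and 55.5, and Il7r, better known from lymphocytes, at 209 ± 41.2. The receptor for IL-4 was present before any IL-4 was added: Il4ra stood at 32.98 ± 3.06, the common chain Il2rg at 52.9 ± 3.95 and Il13ra1 at 9.88 ± 1.42, while the decoy Il13ra2 had 1 count. Both TNF receptors were measured, Tnfrsf1b at 205 ± 17.9 being 1.71 to 2.04 times above Tnfrsf1a at 106 ± 8.19. The interleukin 1 receptor Il1r1 was low at 0.415 ± 0.172 and the decoy Il1r2 rare with 4 counts.

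Growth factors were led by Igf1, a trophic factor, at 1136 ± 207. The matrix protein Thbs1, also a bridge to dying cells, followed at 141 ± 54.4 and the stress hormone Gdf15 at 44.1 ± 13.3. Vegfa stood at 25.2 ± 3.31, Vegfb at 34.8 ± 3.66 and Pdgfc at 25.3 ± 2.75. Vegfa exceeded Vegfc by 59.5 to 284 times, and the EGF receptor ligands Areg, Ereg and Tgfa had 0, 2 and 1 counts. The vascular co-receptors Nrp1 and Nrp2 stood at 233 ± 11.6 and 166 ± 15.7, far above the VEGF receptor kinases Kdr (1.28), Flt4 (0.259) and Flt1 (0.14).

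Of the genes for matrix and its proteases, 30 of 32 were measured, against 51% of all protein-coding symbols. Mmp12, the macrophage elastase, stood at lowest 1879.8, median 2291, highest 2996, the inhibitor Timp2 at 727 ± 42.8 and the sheddase Adam8 at 576 ± 73.4. Mmp14 stood at 43.3 ± 4.90, Mmp9 at 11.4 ± 4.43 and Mmp3 was rare at 0.574 ± 0.32. The plasminogen activator Plau was at 112 ± 30.3 and its receptor Plaur at 50.4 ± 3.73, whereas the tissue-type activator Plat was rare with 29 counts. Fibronectin (Fn1) stood at 35.2 ± 9.18. Among integrin subunits Itgb2 and Itgb1 led at 583 ± 34.3 and 455 ± 33.6, Itgax (CD11c) was at 52.5 ± 8.26, and Itgal, Itga1 and Itgae fell to 3.59, 0.288 and 0.0817.

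Antigen presentation was high for class I and low for class II. The class I light chain B2m gave 4637, 2702, 2652, 3816, 2703 and 2728 in replicates 1 to 6, highest in replicates 1 and 4, and H2-D1 and H2-K1 stood at 1685 ± 257 and 521 ± 72.8. H2 genes are close relatives, so reads may be divided between them. The class II invariant chain Cd74 gave 117, 154, 74.2, 90.5, 50.9 and 63.4, and H2-Aa, H2-Ab1 and H2-Eb1 stood at 38.5 ± 15.8, 22.3 ± 9.46 and 17.5 ± 7.68, all 4 highest in replicate 2 and next highest in replicate 1. The summed B cell markers were 83.9 and 63.4 in replicates 1 and 2 and 18.6 to 33.3 in the rest. B cells also express class II. Most of the sum was Ighm in those libraries, at 51.5 of 83.9 in replicate 1 and 51.6 of 63.4 in replicate 2. Without Ighm the sums ran from 6.62 to 32.3 over the 6 libraries. The part of B cells in the class II levels was not tested. The class II master regulator Ciita was low at 0.509 ± 0.181. The checkpoint ligand Vsir (VISTA) stood at 400.4 ± 41.2 and Cd274 (PD-L1) at 68.98 ± 9.77, above the costimulators Cd80 (10.3 ± 1.31), Cd86 (8.03 ± 2.27) and Cd40 (1.53 ± 0.404), and Pdcd1lg2 (PD-L2) was rare with 9 counts.

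Of 18 markers of the polarised states 6 were measured, against 51% of all protein-coding symbols. Of 8 classical effectors 3 were measured, the highest being the guanylate-binding Gbp2 at 13.4 ± 7.22. Nos2, the inducible nitric oxide synthase, had 6 counts, Acod1, which makes itaconate, had 21, and Ptgs2 (COX-2) stood at 0.623 ± 0.174. Of 10 alternative markers 3 were measured, led by the chitinase-like Chil3 at 28.7 ± 2.72. Arginase 1 (Arg1) had 8 counts, Retnla (FIZZ1) 2, Ccl17 1 and Chil4 4. Interferon-stimulated genes were measured without exception, 20 of 20, at a median of 14.8. They ranged from Ifitm3 at 109 ± 21.2 and Bst2 at 71.01 ± 20.8 to Isg15 at 11.3 ± 3.91, Mx1 at 5.13 ± 1.65 and Ifi44 at 1.47 ± 0.512, while the interferon genes Ifnb1 and Ifng had no count.

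Lineage transcription factors were measured without exception, 17 of 17, led by Spi1 at 379.8 ± 39.7. Zeb2 stood at 206 ± 48.8, Maf at 132 ± 21.6, Cebpa at 131 ± 30.5 and Irf8 at 94.3 ± 8.09. Cebpb, the inducible relative of Cebpa, was lower at 31.2 ± 6.55, and Klf2 and Klf4 stood at 2.39 ± 1.09 and 1.43 ± 0.487. The stress factor Atf3 was the most abundant of all 56 factors, at lowest 792, median 849, highest 980.2, and none of its libraries met the range of Spi1 (320.3 to 428). The antioxidant factor Nfe2l2 stood at 220.1 ± 34.7. Stat6, which carries the IL-4 signal, was at 131 ± 5.75 and Irf5 at 127 ± 16.3, while Irf4 was rare at 0.296 ± 0.0934. Of the nuclear receptors, the lipid-activated Pparg led at 136 ± 14.1, the liver X receptors Nr1h2 and Nr1h3 stood at 68.9 ± 8.20 and 51.6 ± 4.24, and Ppara was at the floor with 1 count. Among immediate early genes, Jun and Fos stood at 94.7 ± 7.87 and 69.2 ± 7.93, Egr1 at 5.75 ± 1.11 and Fosb at 0.567 ± 0.155.

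Mapkapk2, the gene deleted in the knockout groups of the series, gave 94.2, 123, 135, 102, 110.3 and 113 in replicates 1 to 6, with no library near the floor. It exceeded its relative Mapkapk3 by 2.13 to 3.32 times, and Mapkapk5 stood at 72.4 ± 5.06. Of the p38 kinases that activate MK2, Mapk14 stood at 90.2 ± 10.3, 45.4 to 102 times above Mapk11, and Mapk12 and Mapk13 were rare with 18 and 13 counts. Upstream of p38, Map2k3 stood at 41.3 ± 6.31 and Map2k6 at 2.28 ± 0.573. MK2 acts on RNA-binding proteins that control the decay of cytokine transcripts. Zfp36 (tristetraprolin) stood at 72.7 ± 11.2, its relatives Zfp36l2 and Zfp36l1 at 133 ± 7.65 and 53.3 ± 12.5, Hnrnpd (AUF1) at 172 ± 23.9, Elavl1 (HuR) at 43.4 ± 2.36 and the p38 phosphatase Dusp1 at 45.7 ± 7.60.

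Genes of the oxidative burst and of antioxidant defence were both measured. All 7 genes of the phagocyte oxidase were measured, with Cyba at 867 ± 161, the catalytic Cybb at 271 ± 20.5 and Ncf4 lowest at 80.5 ± 7.79. Prdx1 and Gpx1 (2011 ± 189) led the antioxidants, and Nqo1, a target of Nfe2l2, was the lowest at 1.97 ± 0.484. Glycolysis genes included Gapdh at 2045 ± 220.1, Pkm at 826 ± 76.1 and the myeloid hexokinase Hk3 at 229 ± 51.95, above Hk1 (51.02) and Hk2 (16.3). The glucose transporters Slc2a1 and Slc2a3 stood at 22.7 ± 2.74 and 2.68 ± 0.498. Eicosanoid enzymes were led by Alox5ap at 407 ± 54.8 and Hpgds, which makes prostaglandin D, at 217 ± 34.5, while Alox5, the enzyme that Alox5ap serves, stood at 1.57 ± 0.339. Ptgs1 stood at 9.64 ± 1.87. All 18 cytoskeletal genes exceeded 100, from Actb to Coro1a at 144 ± 50.6.

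Genes of the cell cycle were measured in 28 of 29 cases, against 51% of all protein-coding symbols. Pcna, the replication clamp, was at 996 ± 153, Top2a at 61.3 ± 13.02, Cdk1 at 59.8 ± 13.96 and Mki67 at 37.1 ± 9.17. The inhibitor Cdkn1a (p21) was above most of them at 162 ± 7.92, and the M-CSF responsive cyclin Ccnd1 stood at 89.2 ± 23.2, against 18.5 ± 3.23 for Ccnd3 and 4.11 ± 1.351 for Ccnd2. Y-linked genes were present in all 6 libraries, with Eif2s3y at lowest 58.1, median 69.7, highest 104 and Ddx3y at lowest 35.9, median 54.1, highest 58.4, and Xist had 8 counts in all.

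Genes that mark macrophages of particular tissues were mixed. Cd5l, known from Kupffer cells, and Fabp4, known from alveolar macrophages, stood at 2134 ± 404 and 488 ± 83.3, and Fcrls, known from microglia, at 39.8 ± 3.31. Measured were 3 of 5 Kupffer cell genes, 3 of 5 of microglia, 4 of 5 of alveolar, 4 of 5 of peritoneal and 4 of 5 of splenic and perivascular macrophages, and neither of the Langerhans cell genes. Clec4f of Kupffer cells, Sall1 of microglia, Car4 of alveolar macrophages and Epcam of Langerhans cells had no count, and Gata6 of peritoneal macrophages had 1. In all, 18 of 27 genes of these lists were measured, against 51% of all protein-coding symbols, 3 were rare and 6 were at the floor. The myeloid lysozyme Lyz2 exceeded its intestinal twin Lyz1 (14.2 ± 1.14) by 826 to 1311 times, although the pair are close relatives and reads could be divided between them.

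Most genes varied little between the libraries. Spread was taken as the coefficient of variation of GETMM with the counting variance removed, in 8165 genes with a mean count of at least 100, and its median was 10.4% (quartiles 6.42% and 15.5%). Of the 7785 that were not predicted, mitochondrial or ribosomal protein genes, 488 (6.27%) showed no spread beyond counting error, and 2.11% showed 30% or more. On the functional lists 34 of 493 genes with enough counts passed 30% (6.90%). The 20 with least spread, ordered by their raw variation, included the scaffold Ranbp9 (86.2 to 88.6), the kinesin Kif3b (30.7 to 32.00), the serine palmitoyltransferase subunit Sptlc2 (114 to 121), the ornithine decarboxylase Odc1 (121 to 128) and the phosphatase Ppm1a (123 to 131). None of the 5 macrophage markers was on either list of 20.

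The 20 genes with the most spread were mixed in kind. Of these, 10 were protein coding, 6 were pseudogenes and 3 were abundant small RNAs (Rn7s1, Rn7s2 and Rn7sk). Rn7s1 and Rn7s2 carried the same value in every library, from 29.8 to 1107, so they count as a single measurement. Eno1b, Rpl19-ps11, Rpl10a-ps1, Oaz1-ps and Cd300ld5 fell to 0 in at least 1 library and are near-copies or relatives of other genes. Of these, Eno1b gave 79.3, 0, 0, 39.9, 12.5 and 14.98 in replicates 1 to 6. Lars2, a mitochondrial leucyl-tRNA synthetase, gave 199, 672, 394, 1827, 3535 and 1529 beside the rRNA model CT010467.1 at 7241, 27249, 9746, 31449, 44316 and 38823 in the same order of replicates. The part of read assignment in these genes was not tested. Galnt2, a glycosyltransferase gene, ranged from 8.75 in replicate 1 to 242 in replicate 4, and Taf9, Ulk4, Nudt14 and Tmem38b ranged over at least 4 times.

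Vcam1, the adhesion molecule of splenic and marrow macrophages, had the widest spread of the immune genes, with 20.8, 8.40, 9.55, 79.2, 89.8 and 91.9 in replicates 1 to 6. Replicates 4 to 6 all exceeded replicates 1 to 3. In the labels, the unstimulated and IL-4 treated libraries of each replicate number share an LS number, from 1 to 6. The IL-4 treated wild-type libraries with the same replicate numbers, which did not enter the ranking, gave 11.98, 5.99, 7.60, 63.9, 66.05 and 67.1. Adam19, a membrane metalloproteinase, ran the other way with 18.20, 16.4, 13.9, 5.54, 4.51 and 4.76 unstimulated and 16.5, 20.4, 15.2, 5.62, 5.51 and 4.56 with IL-4. Ighm, the heavy chain of IgM, gave 51.5, 51.6, 18.4, 17.4, 11.96 and 13.8 unstimulated and 25.3, 23.9, 9.52, 5.89, 9.33 and 4.95 with IL-4. It made up most of the B cell marker sum in replicates 1 and 2 (83.9 and 63.4), so that sum is not separate from it. The 20 genes held 3, Vcam1, Adam19 and Ighm, in which replicates 1 to 3 and 4 to 6 did not overlap in either state and differed in the same direction (3.2% of the 8165 genes). Unstimulated libraries alone separated these replicates in 8 of the 20 (10.7% of all). Both counts use the unstimulated values in which the 20 were chosen for spread, so nothing is read from either. Whether the same replicate number was both highest and lowest in each state was also counted: this held for 2 of the 20 genes and for 6.32% of all, and the same limit applies.

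In some other genes the same replicate numbers were high or low with IL-4, and examples follow. Of 493 list members with enough counts, 47 had the same replicate highest and the same lowest in both states, against 516 of 8165 genes (6.32%). In 39 of the 493, replicates 1 to 3 and 4 to 6 did not overlap in either state, in the same direction, against 261 of 8165 (3.2%). Most list members thus showed neither, and the shares were not tested. Cd74 gave 248, 367, 126, 149.5, 104 and 120.0 with IL-4, highest in replicate 2 and lowest in replicate 5 as in the unstimulated libraries. Axl, the TAM kinase, gave 17.8, 18.9, 19.2, 38.4, 41.8 and 44.4 unstimulated and 13.2, 11.9, 10.3, 31.5, 26.6 and 28.3 with IL-4, higher in replicates 4 to 6 in both. Clec4n (dectin-2) gave 113, 111, 49.6, 47.6, 53.3 and 45.6 unstimulated, with replicates 1 and 2 above the rest, and 28.4, 29.2, 17.5, 18.9, 19.8 and 21.8 with IL-4. Cadm1, an adhesion molecule chosen after its values were seen, gave 72.7, 63.7, 244, 233, 231 and 228 unstimulated and 61.9, 52.03, 253, 228, 233 and 230.2 with IL-4, low in replicates 1 and 2 in both states. Ftl1 gave 8138, 19116, 22415, 10904, 16328 and 17935 unstimulated and 16231, 25642, 18029, 18554, 17890.3 and 19368 with IL-4, lowest in replicate 1 in both states, whereas replicate 4 was next lowest unstimulated and within the range of the others with IL-4. In the labels, replicates 1 and 2 and replicates 4 to 6 of the unstimulated group carry consecutive library numbers. Replicate 3 of that group carries a separate one. With IL-4, replicate 2 carries the separate number, and replicates 4 to 6 again carry consecutive ones. Nothing is read from these numbers about Cadm1 or the other genes. The parts of culture, library preparation and run were not tested.

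**Figure D5:**
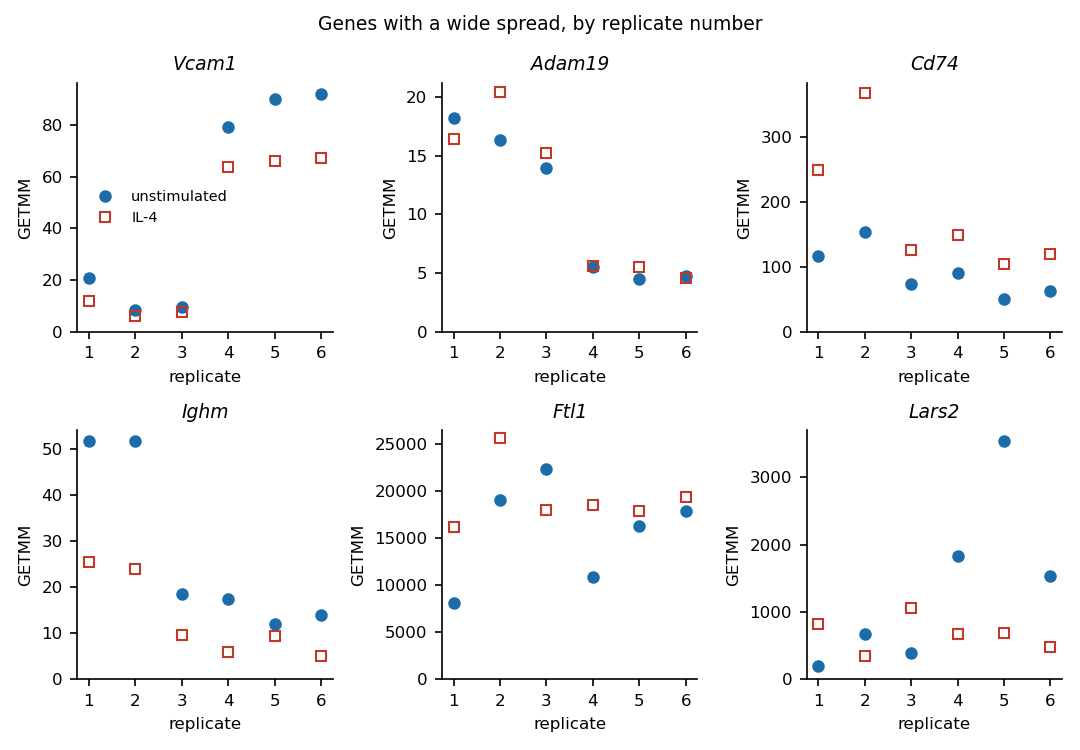
GETMM by replicate number for 6 genes with a wide spread, in unstimulated (filled circles) and IL-4 treated (open squares) wild-type libraries, on axes from 0. Vcam1, Adam19 and Ighm follow the replicate number in both states, Cd74 peaks in replicate 2 in both, Ftl1 is lowest in replicate 1 in both but highest in different replicates, and Lars2 has different replicates highest and lowest in each state.

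The spread ranking depends on the count minimum: 5 of the 20 genes remained with a minimum of 500 counts and 5 with 20, 13 without replicates 1 and 4, and 8 without replicates 1, 3 and 4. It thus depends on those libraries too. Interferon-stimulated genes were more variable than most, with a median spread of 33.3% over the 12 with enough counts, as were 5 class II genes at 41.4%, against 10.4% for all 8165 genes. Of these, Cd74, H2-Aa, H2-Ab1 and H2-Eb1 were highest in replicates 1 and 2, the libraries with the higher B cell marker sum, most of it Ighm.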

How the data were processed

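The 6 unstimulated wild-type libraries were read from the authors' deposited tables of expected counts and of GETMM values (a length-scaled TMM signal), both with 1 row per symbol. Per the submitters' processing notes, CASAVA 2.8.0, RSEM 1.3.0, Bowtie2 2.3.4.1 and edgeR were used with mm10; reads were 40 bases, single-end. Each deposited GETMM signal equalled the expected count times 1 gene factor and 1 library factor; the implied length matched the transcript (within 1%) for 98.7% of 2621 genes with a single transcript in GENCODE M21. Symbols shared by 2 gene IDs (112, among them Aldoa and Ddit3) were left without a level. No column was unmapped. Groups came from titles. There was no contrast and no test: means, SDs, ranges and spread were computed with pandas 2.3.3. In R 4.3.3, dispersions came from edgeR 4.0.16 and RLE size factors from DESeq2 1.42.0. The spread measure was tested on simulated data. Genes named were the 20 most abundant, the 20 with most and least spread, and list members of high and low level. The members and lists were chosen with earlier results of these data known. A few members of these lists are not reported here.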

Additional observations from a re-analysis of the deposited data

Results flagged for a closer look

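In 23 of the 357 named genes above the floor (6.44%), a single unstimulated library lay far from the other 5, judged by its gap to the nearest against the whole range (above Dixon's critical value for 6 samples). Chance alone flags about 1 in 20 such groups, which is near the share seen. The rule takes no account of counting error. No explanation was tested, and values are GETMM.

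Replicate 1 was the high one in 7 genes. The lysosomal glycoprotein Gpnmb stood at 21317 against 15757 to 17803 in the others, the GM-CSF receptor chain Csf2ra at 193 against 95.1 to 126, the protease Mmp14 at 52.8 against 39.7 to 43.7 and the interferon receptor Ifnar1 at 104 against 88.2 to 93.7. The immunoglobulin chain Igkc stood at 29.5 against 3.84 to 11.1, Nudt14 at 76.8 against 13.8 to 34.2 and Ptgs2 at 0.959 against 0.481 to 0.659.

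Replicate 2 was low in the proliferation marker Mki67, at 20.4 against 38.02 to 48.6, and in the Toll-like receptor relative Cd180, at 251 against 337 to 383. It was high in Gbp2 at 27.6 against 8.27 to 12.99, in Tlr6 at 37.0 against 29.6 to 31.5 and in Cxcl9 at 0.781, with 11 counts.

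Replicate 3 was high in the transcription factor Cebpb at 44.1 against 26.2 to 30.6 and in the oxysterol receptor Nr1h2 at 84.1 against 61.8 to 70.1. It was low in the Y-linked helicase Ddx3y at 35.9 against 53.0 to 58.4, in the tetraspanin Cd53 at 723 against 882 to 909 and in Pdgfc at 20.1 against 24.8 to 27.5.

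In the other libraries, replicate 5 was high in Tmem38b, at 77.4 against 18.5 to 34.1. Replicate 4 was high in Olr1 at 0.236 and the neutrophil gene Prtn3 at 1.93, with 5 and 9 counts. It was also flagged in Kif3b, at 32.0 against 30.7 to 31.2. The raw variation of Kif3b over the libraries, 1.43%, was below its counting error of 3.23%. Replicate 6 was high in Arg1 at 1.16, with 5 of the 8 counts of that gene, and low in Ctse at 0.190, with 2 counts.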

How the results depend on the processing

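The number of measured genes, 12468, stayed within 1.5 times under TMM-scaled CPM, lower and stricter cuts and edgeR's filterByExpr (11199 to 13841), and was 26938 with no filter. Leaving out 1 library gave 12427 to 12481. The 20 most abundant genes were the same 20 under total-count and RLE scaling, the median, and without any 1 library, and 18 remained by CPM with no gene length. The top 100 genes held 32.8% of counts without mitochondrial and ribosomal protein genes, and 33.9% to 34.4% when 1 library was left out. Of the 20 genes with most spread, 5 remained with a mean count minimum of 20, 5 with 500, 13 without replicates 1 and 4, 8 without replicates 1, 3 and 4 (both alternatives chosen after seeing the data) and 16 to 20 under the other measures, scalings and single libraries left out. Fewer or more genes enter under another minimum; beyond that the cause was not tested. The 9 marker lists summed to 12.7% of the 5 macrophage markers, 15.3% by CPM, and 12.2% to 13.1% when 1 library was left out. Every named gene kept its rank class under TMM and RLE scaling, as did 382 to 391 without 1 library, and 379 without replicates 1 and 4, whether or not replicate 3 was kept. GETMM is already TMM-scaled, and these scalings changed only the library factors. Means over the 6 libraries could hardly move, so nothing is read from that result. The same holds for total-count and RLE scaling of the 20 most abundant genes. The pseudocount alternative was not run, since no level is given on a log scale. No paired analysis was possible because 1 group was described and no result comes from a test. Genes at a few counts carry large counting error, and at 0 counts a pooled total of up to 3 counts is allowed.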

Other observations

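Tetraspanins, small membrane proteins that organise receptors and vesicles, were all measured, 9 of 9. Besides the lysosomal Cd63, Cd53 of leukocytes stood at 864 ± 69.98 GETMM (SD, n = 6), Cd9 at 463 ± 33.4, Cd37 at 109 ± 15.01 and Cd82 lowest at 40.9 ± 2.54. Cd81 and Cd151 stood at 53.9 ± 7.03 and 77.5 ± 8.12. Tspan4 gave 56.4, 119.6, 142, 67.2, 108 and 107 in replicates 1 to 6, lowest in replicates 1 and 4, the libraries that stood apart in their mitochondrial share.

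Chaperones of unstressed cells were abundant and the inducible ones were not. Hspa8, the constitutive member of its family, stood at 1585 ± 85.5, Hsp90ab1 at 794 ± 40.2 and Hspa5, the chaperone of the endoplasmic reticulum, at 488 ± 24.8. The heat-inducible twins Hspa1a and Hspa1b stood at 0.987 ± 0.164 and 0.985 ± 0.493, and reads of this pair could be divided between them. Hspb1, a small heat shock protein that MK2 phosphorylates, was rare with 36 counts over the 6 libraries.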
